A study of Mus musculus with 4 samples.

Results

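The tumor necrosis factor (TNF) superfamily of ligands and receptors was examined in adult bone marrow mesenchymal stromal cells (MSCs). Members were taken by gene symbol: Tnf, Lta, Ltb, Fasl, Eda, Cd40lg, Cd70 and the Tnfsf genes among ligands, and Ltbr, Fas, Edar, Eda2r, Ngfr, Cd27, Cd40 and the Tnfrsf genes among receptors. Tnfsf11, Tnfrsf11a and Tnfrsf11b, the RANKL system, were left out by that rule. This gave 42 of the 56980 listed genes, 25 receptors and 17 ligands. All 4 libraries came from male wild-type C57BL/6J mice of a colony inbred in-house, aged 14 weeks, and each held 100 cells sorted from the marrow of 1 mouse as CD45- Ter119- CD31- CD51+ PDGFRa+ Sca1-. No allele or agent sets the mice apart, so the libraries form 1 group and no conditions were compared. Full-length cDNA was primed with oligo-dT, amplified by PCR and tagmented, and the authors deposited raw counts per gene. The level of a gene is given in TPM, a length-corrected share of the library's transcripts: the count divided by the length of the gene's merged exons and scaled to 1000000 in each library.

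TNF superfamily ligands are mostly trimeric membrane proteins, several of which are shed as soluble cytokines, and they bind receptors that lack enzymatic activity. A subset of the receptors carries an intracellular death domain, which recruits adaptors such as TRADD and FADD and can lead to cell death. The others bind TRAF adaptors directly, and both kinds can activate NF-κB. In bone marrow, TNF family signals act between hematopoietic, immune and stromal cells and are best known there for the control of osteoclasts and of B cell survival.

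The libraries held between 22738604 and 43545349 counts. The 6 markers of the sort and of the stromal niche (Pdgfra, Itgav, Cxcl12, Lepr, Kitl and Prrx1) and the 5 osteoblast markers were above 1 TPM in every mouse. The 6 summed to between 1106 and 4634 TPM and the osteoblast markers to between 38955 and 44401 TPM. The 4 adipocyte markers summed to 199, 962, 439 and 234 TPM in mice 1 to 4, with 3 of them above a median of 1 TPM. The 4 chondrocyte markers summed to between 219 and 352 TPM, most of it Col11a2, with 2 of them above that median. Of the markers of other cells, the 5 T cell markers together had 2, 0, 1 and 0 counts in mice 1 to 4, the B cell markers Cd79a, Cd79b and Ms4a1 0, 0, 0 and 22, the 5 macrophage markers 11, 0, 320 and 5, and the leukocyte gene Ptprc 2, 2, 0 and 50, and none of these was above the cutoff used here, a median of 1 TPM. The 5 neutrophil markers together had 441, 116, 82 and 57 counts (between 4.09 and 30.7 TPM), with S100a8 and S100a9 above that cutoff and Ltf at 0 counts in every mouse. The 5 endothelial markers had 13, 70, 5 and 57 counts (at most 1.28 TPM), with Cdh5 and Kdr at 0 throughout, and the 4 megakaryocyte markers 123, 0, 15 and 0 (at most 7.95 TPM), with Itga2b at 0 throughout. The 5 erythroid markers summed to between 21.1 TPM in mouse 2 and 3907 TPM in mouse 1, in spite of the sort against Ter119.

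Receptors of the family were measured at higher levels than its ligands. A member was called expressed when its median over the 4 mice was above 1 TPM. This was reached by 11 of the 42 members (26.2%), comprising 9 of 25 receptors (36%) and 2 of 17 ligands (11.8%), where 44.2% of protein-coding genes reached it. All members are protein-coding. At least 3 counts in 1 or more mice were found for 28 members. The share of protein-coding genes that reach this was not computed, so 28 is not read as high or low. A level above 1 TPM in every mouse was reached by 7 members, all of them receptors, against a share of 30.1% among protein-coding genes. Summed over the 25 receptors, the level was 229, 282, 377 and 203 TPM in mice 1 to 4, while the 17 ligands summed to 4.87, 52.0, 8.68 and 10.7 TPM. In each mouse the receptors exceeded the ligands, by between 5.42 times in mouse 2 and 46.9 times in mouse 1. These are bulk libraries, in which fewer cells that carry a transcript and less of it per cell cannot be told apart.

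**Figure D1:**
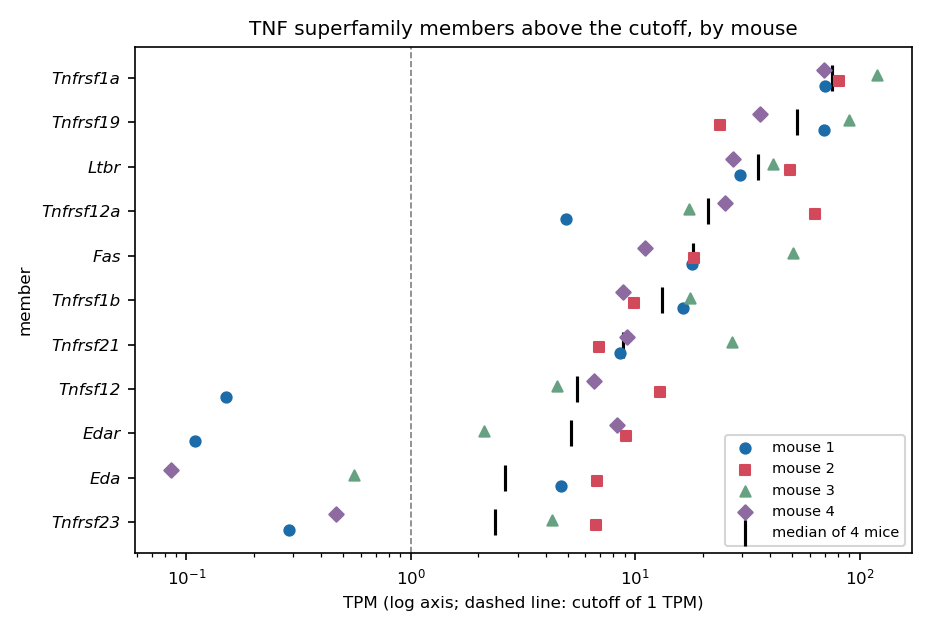
TPM (log axis) of the 11 members with a median above 1 TPM, each point a mouse and each black bar the median of the 4 mice. All points of the 7 genes from Tnfrsf1a down to Tnfrsf21 lie to the right of the dashed line at 1 TPM, and Tnfsf12, Edar, Eda and Tnfrsf23 have points on both sides of it.

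The highest member was Tnfrsf1a, which encodes TNFR1, the death domain receptor for soluble TNF and lymphotoxin alpha. It had 3194, 2336, 5339 and 1866 counts, or 70.1, 81.0, 119 and 69.7 TPM, in mice 1 to 4 (mean 85.0 ± 23.4 TPM, SD, n = 4 mice). It had the highest TPM of the members in every mouse, by a margin of 70.1 to 69.5 TPM over Tnfrsf19 in mouse 1, and made up between 28.8% and 34.3% of the summed receptor TPM, and 97.6% of all genes with a length had a lower median. Its relative Tnfrsf1b, encoding TNFR2, which has no death domain and responds mainly to membrane-bound TNF, had 16.3, 9.94, 17.5 and 8.87 TPM (mean 13.2 ± 4.38 TPM, SD, n = 4). Tnfrsf1a was above Tnfrsf1b in 4 of 4 mice, by 2.62 ± 0.40 on the log2(TPM + 1) scale (mean ± SD; exact two-sided sign-flip permutation test, p = 0.125, adjusted p = 0.125 over 5 pairs). With 4 mice 0.125 is the smallest p that this test can give, so for all 5 pairs tested the size is set against its SD. The first place of Tnfrsf1a depends on the length correction, since with no length Tnfrsf19 had the higher mean (107.6 against 92.5 counts per 1000000).

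Ltbr, the receptor for membrane lymphotoxin and LIGHT and an activator of non-canonical NF-κB, is the family member nearest to Tnfrsf1a on chromosome 6. In the GRCm38 annotation, Ltbr (chr6:125306571-125313885) and Tnfrsf1a (chr6:125349362-125362484) are 35.5 kb apart, and each has 10 exons in its longest transcript. Cd27, a receptor of lymphocytes, lies 69.6 kb on the other side of Ltbr (chr6:125232622-125237010). Ltbr had 29.4, 48.8, 41.4 and 27.3 TPM (mean 36.7 ± 10.2 TPM, SD, n = 4) while Cd27 had 0, 0, 1 and 1 counts. The promoter windows of Tnfrsf1a and Ltbr are shown, and these were the members above the cutoff that varied least between mice. They run from 250 bases before to 50 bases after the annotated start in RefSeq on GRCm38.p6, 5′ to 3′ on the strand of the gene, with each CG dinucleotide in capitals. They are chr6:125349473-125349772 on the plus strand for Tnfrsf1a and chr6:125313836-125314135 on the minus strand for Ltbr.
Tnfrsf1a: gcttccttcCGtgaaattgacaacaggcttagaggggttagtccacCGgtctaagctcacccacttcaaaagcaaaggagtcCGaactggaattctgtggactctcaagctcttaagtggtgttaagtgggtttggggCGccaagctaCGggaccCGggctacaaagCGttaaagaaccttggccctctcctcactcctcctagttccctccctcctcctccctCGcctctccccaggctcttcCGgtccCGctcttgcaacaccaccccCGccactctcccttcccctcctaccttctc
Ltbr: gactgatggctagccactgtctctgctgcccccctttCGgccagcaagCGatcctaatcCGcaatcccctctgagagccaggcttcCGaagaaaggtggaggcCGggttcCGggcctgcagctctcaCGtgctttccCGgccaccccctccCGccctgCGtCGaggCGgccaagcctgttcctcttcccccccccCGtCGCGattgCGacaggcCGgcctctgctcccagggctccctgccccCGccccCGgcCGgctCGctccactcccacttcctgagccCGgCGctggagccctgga
The Tnfrsf1a window held 11 CG dinucleotides and the Ltbr window 23.

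Ltbr shares the ligand LIGHT (Tnfsf14) with Tnfrsf14, the herpesvirus entry mediator, a receptor of lymphocytes. Tnfrsf14 had 275 counts (10.9 TPM) in mouse 1 and 1, 2 and 0 counts in mice 2, 3 and 4. Ltbr was above Tnfrsf14 in 4 of 4 mice, by 4.26 ± 1.96 on the log2(TPM + 1) scale (mean ± SD, exact permutation p = 0.125, adjusted p = 0.125). The difference was 1.36 in mouse 1 and between 4.82 and 5.55 in the other mice, and its mean was 6.40 with a pseudocount of 0.1 in place of 1. Other genes hold near-identical sequence for 13.7% of Tnfrsf14, and none was found for Ltbr.

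Among the 7 receptors with a death domain, 4 were above the cutoff, namely Tnfrsf1a, Fas, Tnfrsf21 and Edar. Fas, the receptor for Fas ligand that starts caspase-8-dependent death, had 17.8, 18.2, 50.7 and 11.1 TPM (mean 24.5 ± 17.8 TPM, SD, n = 4). Tnfrsf21, or death receptor 6, had 8.53, 6.93, 26.9 and 9.18 TPM (mean 12.9 ± 9.40 TPM, SD, n = 4). Both were highest in mouse 3, and the levels of the 3 other mice lay closer together than to that of mouse 3. Edar, the receptor for ectodysplasin A1 in skin appendage development, had 7, 367, 133 and 311 counts, or 0.109, 9.07, 2.12 and 8.27 TPM, and so was above 1 TPM in 3 of 4 mice. Tnfrsf25 (death receptor 3) had 0, 14, 0 and 57 counts and was above 1 TPM in mouse 4 alone, at 2.42 TPM. Ngfr, the neurotrophin receptor used as a surface marker of human MSCs, and Tnfrsf10b, the murine TRAIL death receptor, each had 1 count in mouse 1 and 0 in the other mice. For these, 3 counts correspond to between 0.0495 and 0.0842 TPM for Ngfr and between 0.0313 and 0.0533 TPM for Tnfrsf10b, so that levels below these were not detectable.

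Tnfrsf22, Tnfrsf23 and Tnfrsf26 form a cluster on chromosome 7. Tnfrsf22 and Tnfrsf23 bind TRAIL without a functional death domain. Tnfrsf23 had 20, 294, 293 and 19 counts (0.287, 6.67, 4.28 and 0.464 TPM), with mice 2 and 3 above and mice 1 and 4 below 1 TPM. Tnfrsf26 had 35, 0, 185 and 1 counts, with 3.33 TPM in mouse 3, and Tnfrsf22 had 0, 0, 5 and 135 counts, with 3.10 TPM in mouse 4. Each of these neighbors was therefore highest in a different mouse. Tnfrsf10b was below Tnfrsf23 in 4 of 4 mice (mean difference -1.56 ± 1.30, SD, on the log2(TPM + 1) scale, exact permutation p = 0.125, adjusted p = 0.125). With Tnfrsf10b at 0 or 1 count, the size rests on the pseudocount, and it was -3.96 with 0.1 in place of 1. Tnfrsf22 has near-identical stretches elsewhere over 18.4% of its longest transcript and Tnfrsf10b over 17.9%, where reads that map to more than 1 place were not counted.

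Of the 15 receptors that signal without a death domain, Tnfrsf19, Ltbr, Tnfrsf12a and Tnfrsf1b were above the cutoff, and each was above 1 TPM in every mouse. Tnfrsf19 (TROY), an orphan receptor that is also a Wnt target gene, had 5792, 1254, 7343 and 1765 counts, or 69.5, 23.8, 89.7 and 36.05 TPM (mean 54.8 ± 30.3 TPM, SD, n = 4). Mice 1 and 3 were the high ones. Tnfrsf12a (FN14), the receptor for TWEAK, had 168, 1366, 578 and 500 counts, or 4.94, 63.6, 17.3 and 25.04 TPM (mean 27.7 ± 25.3 TPM, SD, n = 4). It was highest in mouse 2 and lowest in mouse 1. Tnfrsf1a, Tnfrsf19 and Ltbr together accounted for between 54.55% of the receptor TPM in mouse 2 and 73.93% in mouse 1.

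In the order of medians, Tnfrsf1a was followed by Tnfrsf19, Ltbr, Tnfrsf12a, Fas, Tnfrsf1b, Tnfrsf21, Tnfsf12, Edar, Eda and Tnfrsf23. Most neighbors in this order did not differ beyond their spread. Tnfrsf1a was above Tnfrsf19 by 0.77 (SD 0.74) and Fas above Tnfrsf1b by 0.68 (SD 0.61) on the log2(TPM + 1) scale, both in 4 of 4 mice. The order was taken from these same 4 mice, so these differences are no independent support for it. For the 8 other neighboring pairs the mean difference was smaller than its SD between mice.

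The remaining 11 receptors without a death domain are mostly known from lymphocytes. Cd40, the receptor of antigen-presenting cells for CD40 ligand, had 494 counts (13.0 TPM) in mouse 2, 1 count in mouse 1 and 0 in mice 3 and 4. Tnfrsf4 (OX40), a T cell costimulatory receptor, had 111 counts (4.71 TPM) in mouse 3 and 0 in the others. Eda2r, the receptor for ectodysplasin A2, had 91 counts (1.49 TPM) in mouse 4 and 0 in the others, and was below Edar in 4 of 4 mice (mean difference -1.75 ± 1.30, SD, on the log2(TPM + 1) scale, exact permutation p = 0.125, adjusted p = 0.125). With a pseudocount of 0.1 that difference was -3.61. Cd27, Tnfrsf8 and Tnfrsf9 had at most 6 counts in any mouse. Tnfrsf13b, Tnfrsf13c and Tnfrsf17, which bind BAFF or APRIL on B cells and plasma cells, and Tnfrsf18 (GITR), a receptor of regulatory T cells, had 0 counts in every mouse. Tnfrsf18 shares 27.2% of its exonic bases with Gm16008 on the opposite strand, which had 94 counts in mouse 4. The counting used no strand, so reads on the shared bases cannot be assigned to either gene.

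**Figure D2:**
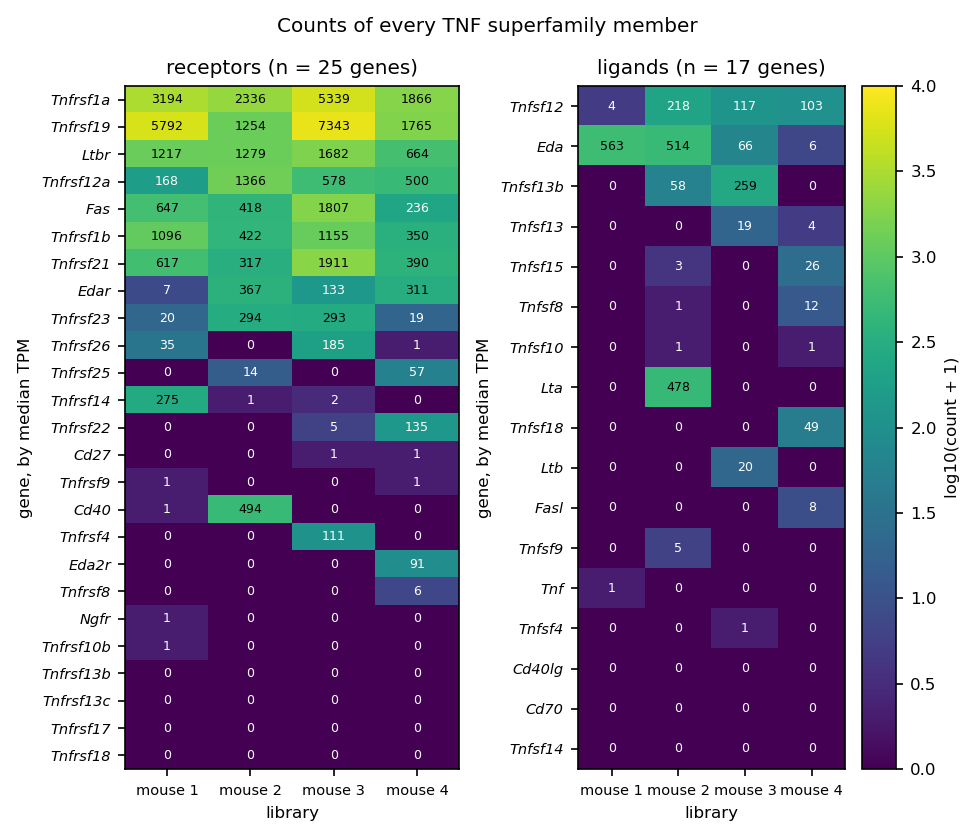
Counts of all 25 receptors (left) and 17 ligands (right) in each of the 4 libraries, with color giving log10(count + 1) and the number in each cell the raw count. Rows are ordered by median TPM, and 8 genes such as Lta, Cd40 and Eda2r have 10 counts or more in 1 mouse and under 3 in each of the others.

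Ligands above the cutoff were Tnfsf12 and Eda, each of them under 1 TPM in at least 1 mouse. Tnfsf12, encoding TWEAK, had 4, 218, 117 and 103 counts, or 0.150, 12.9, 4.47 and 6.58 TPM (mean 6.03 ± 5.32 TPM, SD, n = 4). Mouse 1 lay far below the 3 others, which ranged from 4.47 to 12.9 TPM. Tnfsf12 lies 0.465 kb from Tnfsf13 on chromosome 11 and shares 48.2% of its exonic bases with the readthrough gene Tnfsfm13 on the same strand, which had 0, 36, 55 and 0 counts. Reads on shared bases cannot be assigned to either gene, and no option to count them for both is stated. Tnfsf13 (APRIL), which shares 60.0% of its exonic bases in the same way, had 0, 0, 19 and 4 counts. Eda, encoding ectodysplasin A on the X chromosome, had 563, 514, 66 and 6 counts, or 4.69, 6.77, 0.560 and 0.0851 TPM (mean 3.03 ± 3.24 TPM, SD, n = 4). It was high in mice 1 and 2 and low in mice 3 and 4, so that its median above 1 TPM was lost without mouse 1 or without mouse 2.

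The TNF and lymphotoxin genes lie together on chromosome 17, in the order Ltb (chr17:35194439-35196320), Tnf (chr17:35199381-35202007) and Lta (chr17:35203165-35205351) of GRCm38, with gaps of 3.06 and 1.16 kb. Tnf, the prototype inflammatory cytokine of macrophages and T cells, had 1 count in mouse 1 and 0 counts in mice 2, 3 and 4, where 3 counts correspond to between 0.104 and 0.177 TPM. Ltb, which forms membrane lymphotoxin with Lta, had 20 counts (0.763 TPM) in mouse 3 and 0 in the others. Lta, encoding lymphotoxin alpha, had 478 counts (31.1 TPM) in mouse 2 and 0 in mice 1, 3 and 4. In mouse 2, Lta made up most of the summed ligand level of 52.0 TPM, while its neighbors Tnf and Ltb had 0 counts there. The windows of Tnf (chr17:35201958-35202257) and Lta (chr17:35205302-35205601), both on the minus strand of GRCm38.p6 and printed as above, show a pair of adjacent genes of which Lta was counted in mouse 2 alone and Tnf had 1 count in all.
Tnf: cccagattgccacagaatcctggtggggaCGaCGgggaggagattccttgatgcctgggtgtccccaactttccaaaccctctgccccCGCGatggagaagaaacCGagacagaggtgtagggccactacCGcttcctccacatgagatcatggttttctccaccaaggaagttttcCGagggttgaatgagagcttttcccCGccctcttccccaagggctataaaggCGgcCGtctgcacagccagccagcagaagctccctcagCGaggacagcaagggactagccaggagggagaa
Lta: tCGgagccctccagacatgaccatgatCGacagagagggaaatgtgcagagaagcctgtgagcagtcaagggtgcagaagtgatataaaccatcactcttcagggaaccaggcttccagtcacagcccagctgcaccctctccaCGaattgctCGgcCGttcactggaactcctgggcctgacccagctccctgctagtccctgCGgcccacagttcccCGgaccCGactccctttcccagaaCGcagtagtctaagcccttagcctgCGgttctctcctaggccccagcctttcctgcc
Both hold the letters TATAAA, which begin at -29 from the start in Tnf and at -167 in Lta.

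The other ligands were low or found in single mice. Tnfsf13b (BAFF), a B cell survival factor, had 0, 58, 259 and 0 counts and reached 2.18 TPM in mouse 3 and 0.759 TPM in mouse 2. Tnfsf18, the ligand of GITR, had 49 counts (2.30 TPM) in mouse 4 and 0 in the others. Fasl, the death-inducing ligand of cytotoxic lymphocytes, had 8 counts (0.400 TPM) in mouse 4 and 0 in the others. Tnfsf10, encoding TRAIL, had 1 count in each of mice 2 and 4. Tnfsf4, Tnfsf8, Tnfsf9 and Tnfsf15 stayed below 1 TPM in every mouse. Cd40lg, Cd70 and Tnfsf14, ligands of activated lymphocytes, had 0 counts in every mouse. With the 4 receptors above, this makes 7 members with 0 counts throughout, for which 3 counts correspond to between 0.0601 TPM (Tnfrsf13b, mouse 1) and 0.356 TPM (Tnfrsf17, mouse 4). The share of protein-coding genes at 0 counts throughout was not computed, so 7 is not read as many or few.

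Counts in a single mouse were frequent in the family. Tnfrsf14, Cd40, Tnfrsf4, Eda2r, Lta, Ltb, Tnfsf8 and Tnfsf18 had at least 10 counts in 1 mouse and under 3 in the 3 others. These are 8 of 42 members (19%), 4 receptors and 4 ligands, against 7.99% of protein-coding genes. All 8 were under the cutoff. Fewer members (26.2%) than protein-coding genes (44.2%) were above it, so the shares of 19% and 7.99% are not of like sets. The mouse concerned was mouse 1 for Tnfrsf14, mouse 2 for Cd40 and Lta, mouse 3 for Tnfrsf4 and Ltb, and mouse 4 for Eda2r, Tnfsf8 and Tnfsf18. In mouse 2, all 5 T cell and all 5 macrophage markers and Cd79a, Cd79b and Ms4a1 were at 0 counts and Ptprc had 2. The neutrophil markers S100a9, Mpo, S100a8, Elane and Ltf had 114, 2, 0, 0 and 0 counts there, with S100a9 at its highest level (19.6 TPM). The endothelial markers Tek, Pecam1, Emcn, Cdh5 and Kdr had 58, 11, 1, 0 and 0 counts in that mouse. In mouse 3, the macrophage markers C1qb and Cd68 had 176 and 144 counts while Adgre1, Csf1r and C1qa had 0. In mouse 4, Cd79a had 22 and Ptprc 50 counts while Cd79b and Ms4a1 had 0. In mouse 1, the erythroid markers were highest (3907 TPM in sum, with 2 of the 5 above 1 TPM in every mouse and none at 0 in all). The neutrophil markers Elane, S100a8, S100a9, Mpo and Ltf had 261, 142, 36, 2 and 0 counts in that mouse, and the megakaryocyte markers Gp9, Pf4, Gp1bb and Itga2b had 122, 1, 0 and 0. The part of these other cells in the levels of Tnfrsf14, Cd40, Lta, Tnfrsf4, Ltb, Tnfsf13b, Eda2r, Tnfsf8 and Tnfsf18 was not tested.

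The spread between mice exceeded counting error for every member above the cutoff. The coefficient of variation (CV, the SD as a percentage of the mean) was 27.6% for Tnfrsf1a, 27.7% for Ltbr and 33.3% for Tnfrsf1b, where counting error alone gives 1.82%, 2.96% and 3.74%. It was 55.3% for Tnfrsf19, 72.8% for Fas, 72.9% for Tnfrsf21 and 91.2% for Tnfrsf12a. Protein-coding genes whose mean lay between 10 and 100 TPM had a median CV of 44.0%, and 4 of the 7 members in that range exceeded it. For means between 1 and 10 TPM the median CV was 84.7%, and all 8 members in that range exceeded it (median of the members 152%). Of these, Lta, Cd40, Tnfrsf14 and Tnfrsf4 reached the range through 1 mouse each, which fixes their CV near 200% (196.5% to 200%). Tnfsf12, Edar, Eda and Tnfrsf23 had 88.2%, 91.0%, 107% and 106%. Each library came from 100 cells and was amplified by PCR, and counting error covers neither step.

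**Figure D3:**
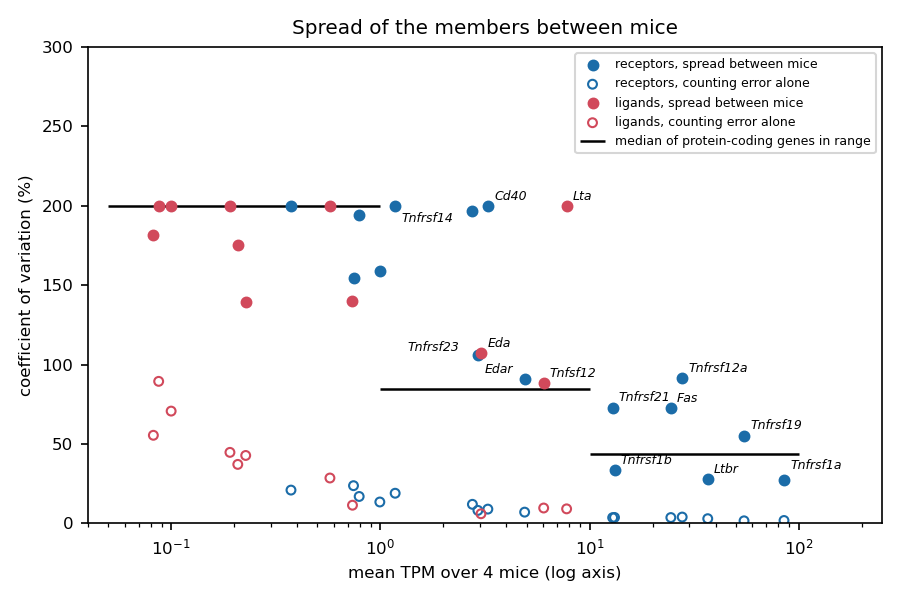
CV between the 4 mice (filled points) and CV expected from counting alone (open points) against mean TPM (log axis) for members with a mean above 0.05 TPM, with black lines for the median CV of protein-coding genes in ranges of mean TPM. Tnfrsf1a, Ltbr and Tnfrsf1b lie below the line of their range, and a CV of 200% is the value of a gene counted in 1 of the 4 mice.

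To see which receptors were measured together with their own ligands, 26 known receptor-ligand pairs of the family were compared within libraries. For 10 of the 26 pairs the receptor was above the cutoff, and in 2 of these the ligand was too. Tnfrsf12a and Tnfsf12 were both above 1 TPM in 3 of 4 mice, and Edar and Eda in mouse 2 alone. The receptor Tnfrsf12a exceeded its ligand Tnfsf12 in 4 of 4 mice by 2.03 ± 0.31 on the log2(TPM + 1) scale (mean ± SD, exact permutation p = 0.125, adjusted p = 0.125), with differences of 2.37, 2.21, 1.74 and 1.78 in mice 1 to 4. The mean was 2.79 with the longest transcript in place of merged exons. Because Tnfsf12 shares 48.2% of its exonic bases with Tnfsfm13, its counts may be too low and the difference too large. Both genes were lowest in mouse 1 and highest in mouse 2. In mouse 1 Tnfsf12 had 0.150 TPM beside 4.94 TPM of Tnfrsf12a, so the pseudocount of 1 held down the difference there. The mean was 2.62 with a pseudocount of 0.1, and the small SD therefore depends on the pseudocount. Tnfrsf1a and Tnfrsf1b were above 1 TPM together with Lta in mouse 2 only. For Ltbr, Fas and Tnfrsf23, no ligand on the list (Ltb and Tnfsf14, Fasl, and Tnfsf10) exceeded 1 TPM in any mouse.

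**Figure D4:**
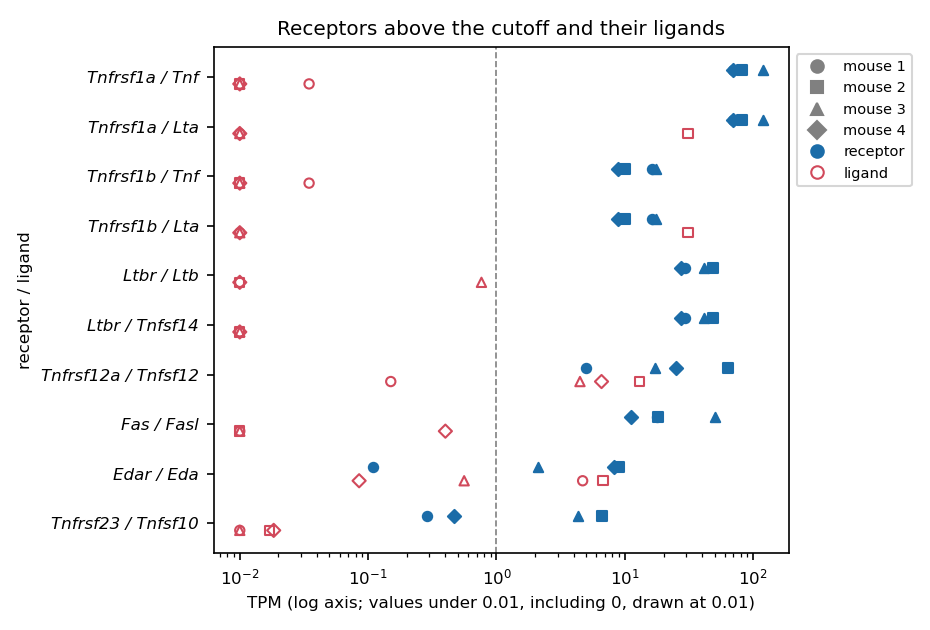
TPM (log axis) of the receptor (filled) and the ligand (open) in each mouse (marker shape) for the 10 pairs whose receptor has a median above 1 TPM, with values under 0.01 drawn at 0.01. Ligand points lie to the right of the dashed line at 1 TPM for Tnfsf12 in 3 mice, Eda in 2 mice and Lta in 1 mouse.

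Genes that act directly below these receptors were mostly expressed. Of 37 adaptors, kinases, ubiquitin enzymes, death effectors and inhibitors, and the sheddase Adam17, 33 had a median above 1 TPM and 21 were above 1 TPM in every mouse, with a median of 5.72 TPM over the list, where 44.2% and 30.1% of protein-coding genes passed these criteria. The highest were Nfkbia, the NF-κB inhibitor that is itself an NF-κB target, with 180, 639, 366 and 211 TPM, the NF-κB subunit gene Rela (43.4, 47.5, 43.4 and 10.6 TPM), Rbck1 of the linear ubiquitin ligase (median 21.3 TPM), Tab1, a partner of the kinase TAK1 (16.8 TPM), and the adaptor Traf2 (16.4 TPM). The 4 not above the cutoff were Traf1, Map3k14, Ikbkg and Edaradd. Map3k14, encoding the kinase NIK of the non-canonical pathway below Ltbr, had 0, 325, 18 and 22 counts. Edaradd, the adaptor through which EDAR signals, had 0, 1, 0 and 0 counts, beside 7, 367, 133 and 311 counts of Edar.

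Promoter windows in RefSeq were found for 33 of the 42 members. The 10 members above the cutoff with a window held a median of 14 CG dinucleotides (range 9 to 23) in 300 bases, and the 23 not above it held 7 (range 2 to 23). Among protein-coding genes the medians were 21 for the 7762 above the cutoff and 5 for the 8993 not above it. Ngfr, with 1 count in all, had as many CG dinucleotides (23) as Ltbr, and Tnfrsf1a had as many (11) as Tnf. The letters TATAAA, searched on both strands, stood in 1 of the 10 windows of members above the cutoff (10%, Tnfrsf23) and in 5 of the 23 others (21.7%), where 8.67% and 19.7% of the protein-coding windows held them. These are counts of letters in a window and say nothing of the factors bound there.

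**Figure D5:**
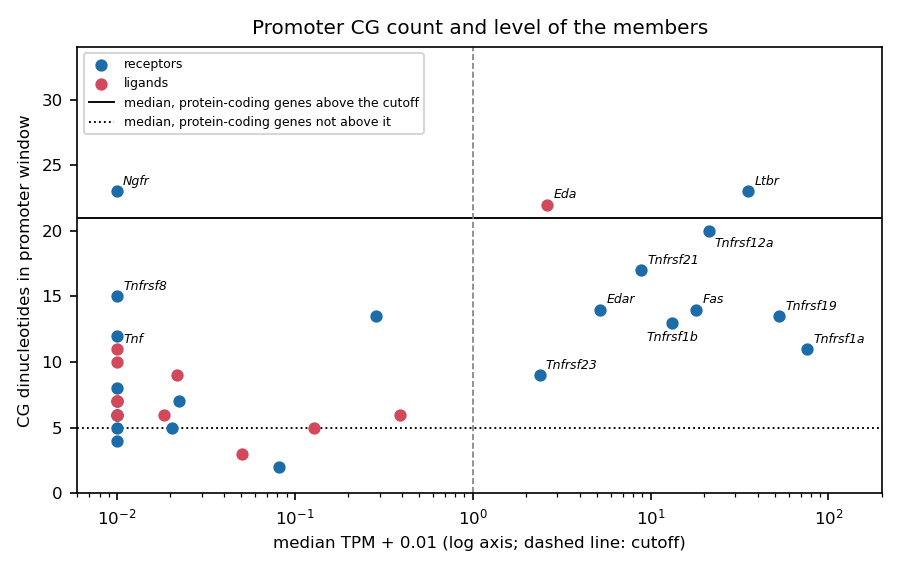
Number of CG dinucleotides in the 300-base promoter window (mean over windows where a gene has more than 1) against median TPM + 0.01 (log axis) for the 33 members with a window, with horizontal lines for the medians of protein-coding genes above the cutoff (21, solid) and not above it (5, dotted). The members above the cutoff lie between 9 and 23, and Ngfr and Tnfrsf8 stand high among those near 0 TPM.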

How the data were processed

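RNA of 4 libraries of sorted adult bone marrow MSCs was sequenced, 1 library per mouse. Per the labels and the Supplementary Methods, STAR alignment to GRCm39 was followed by featureCounts, with no strand option given, and the authors deposited the raw counts of uniquely mapped pairs per Ensembl gene. Whole numbers were checked in every column. Every per-sample column (0 unused) was mapped to a mouse by its name.

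TPM was computed in Python 3.11.15 (pandas 2.3.3, numpy 2.4.6, scipy 1.17.1), and the study's median cutoff of 1 TPM for MSCs was kept. Union exon lengths and coordinates were those of GENCODE M21 on GRCm38, joined by Ensembl identifier. This is not the build of the counts, so a gene whose exons were annotated anew has a TPM off by the ratio of its lengths. The 4855 genes that lack a length in that annotation do not enter the TPM, and 96.14% to 98.15% of the counts remained. The limit of 3 counts, 0.0689 to 0.132 in a library scaled to 1000000 counts, covers counting error only, since no molecular identifiers are described. The cutoff code was run on simulated data of 52125 genes, with counting error around a common mean per gene and no spread between mice. Of those clear of the cutoff, 99.98% were placed on the right side. This checks the code and not how stable the cutoff is over the mice of these data. Shared exons came from the annotation and near-identical copies (95% identity over at least 100 bases of the longest transcript) from BLAST 2.17.0. Promoter windows were RefSeq's.

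Each of 5 pairs was compared within mice on log2(TPM + 1), with signs flipped over the 4 mice in an exact two-sided permutation test, and p was adjusted over the 5 by Benjamini-Hochberg. Mice are separate animals. Every member above the cutoff was named with its values, as were Tnf, Fasl, Tnfsf10, Tnfsf13b, Lta, Ltb, Cd40, Cd40lg and the genes of the pairs whatever their level. Members under the cutoff were named in groups. Of the 37 genes of the pathway, the 5 highest and those not above the cutoff were named. 1 further B cell marker is not reported here. Members, lists and pairs were chosen with earlier results of these data known. Alternatives were scaling by edgeR 4.0.16 TMM factors or DESeq2 1.42.0 size factors (R 4.3.3), a protein-coding denominator, the longest transcript or no length, other summaries, cutoffs and minimum counts, a pseudocount of 0.1, and leaving out each mouse.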

Additional observations from a re-analysis of the deposited data

Results flagged for a closer look

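By Dixon's criterion, 1 mouse stood apart from the 3 others in 15 of 35 sets of values. The sets were 28 members with at least 3 counts in a mouse, the summed levels of receptors and of ligands, and the 5 pair differences. The criterion is set to be met in about 1 of 20 sets of independent normal values, which these are not. The share of all genes that meet it was not computed, so 15 of 35 is not read as an excess. A member counted in 1 mouse alone meets the criterion by construction.

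Among members above the cutoff, this held for Tnfrsf21, with 26.9 TPM in mouse 3 against 6.93 to 9.18 TPM in the others. Mouse 1 stood apart for Tnfrsf14 (10.9 TPM). Mouse 2 stood apart for Lta (31.1 TPM), Cd40 (13.0 TPM) and Tnfsf9 (0.348 TPM), and for the summed TPM of the ligands (52.0 TPM), most of which was Lta. Mouse 3 stood apart for Tnfrsf4 (4.71 TPM) and Ltb (0.763 TPM). Mouse 4 stood apart for Tnfrsf22 (3.10 TPM), Tnfsf18 (2.30 TPM), Eda2r (1.49 TPM), Tnfsf15 (0.752 TPM), Fasl (0.400 TPM), Tnfsf8 (0.305 TPM) and Tnfrsf8 (0.168 TPM). Of these, Tnfsf9 rests on 5 counts, Tnfrsf8 on 6, Fasl on 8 and Tnfsf8 on 12.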

How the results depend on the processing

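Of the family's 42 members, 11 were expressed. The number stayed at 11 with edgeR TMM factors, DESeq2 size factors, a protein-coding denominator, the longest transcript and a cutoff of 0.5 TPM, was 12 with no length (adding Tnfsf13b) and 15 by the mean over mice (adding Cd40, Lta, Tnfrsf14 and Tnfrsf4), and fell to 9 at 5 TPM (without Eda and Tnfrsf23), 8 where 10 counts were required of each mouse (without Eda, Edar and Tnfsf12) and 7 where more than 1 TPM was (also without Tnfrsf23). Without 1 mouse it ranged from 9 to 11. The 2 ligands became 1 at 5 TPM, 0 with 10 counts in each mouse and 0 with more than 1 TPM in each mouse, and ranged from 1 to 2 without 1 mouse. Eda was lost without mouse 1 or mouse 2, and Tnfrsf23 without mouse 2 or mouse 3. The 5 pair differences kept their direction in all 50 alternatives run. Each had the same sign in 4 of 4 mice, so scaling, the pseudocount and leaving out a mouse could not reverse it. Only the longest transcript and no length could have done so. A pseudocount of 0.1 moved the size from 4.26 to 6.40 for Ltbr minus Tnfrsf14 and from -1.56 to -3.96 for Tnfrsf10b minus Tnfrsf23. It also moved the size from -1.75 to -3.61 for Eda2r minus Edar and from 2.03 to 2.62 for Tnfrsf12a minus Tnfsf12. With no length, Tnfrsf19 ranked above Tnfrsf1a by the mean. Of 198 alternative means of 22 named members, 5 moved by more than 1 SD, all of them with no length, and leaving out a mouse cannot move a mean of 4 that far. Depth limits statements on members with few counts, and 4 mice limit every p to 0.125 or more.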
